A study of Drosophila melanogaster with 6 samples.

Results

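The EGFR signalling and vein genes described here are *Egfr*, *vn*, *spi*, *rho*, *aos*, *sty*, *pnt*, *kek1* and *bs*, 9 of the 17471 genes counted in the wing discs. They were picked by symbol for their known roles, with earlier results of these data known. All 9 were found by FlyBase identifier. All 9 had at least 10 counts summed over the 6 libraries, as did 10841 genes in all. RNA-seq compared 3 *dLsd1* mutant samples with 3 *wild-type* samples, and each sample pooled 30 discs dissected from females at the wandering stage of the third instar. The mutant larvae were homozygous for *dLsd1∆N*, a null allele made by recombination between piggyBac insertions in the gene and kept over a balancer chromosome. The *wild-type* larvae came from w1118, an inbred stock that was not isogenised. The discs were taken whole, so notum, hinge, pouch, attached myoblasts and trachea contributed RNA. In such bulk samples, fewer cells of a type and less RNA per cell cannot be told apart.

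EGFR is the receptor tyrosine kinase of a pathway that runs through Ras, Raf and MAP kinase to the nucleus. In the wing disc it is known for setting aside the notum early, and later for specifying the veins, where the protease Rhomboid (*rho*), with the help of Star, releases the ligand Spitz (*spi*). Vein (*vn*) is a neuregulin-like ligand that needs no such processing. Argos (*aos*) is a secreted antagonist that binds Spitz, Sprouty (*sty*) inhibits Ras signalling inside the cell, and Kekkon-1 (*kek1*) is a transmembrane protein that binds the receptor and damps it. These inhibitors are known feedback targets of the pathway. Pointed (*pnt*) is the ETS transcription factor that activates many of its targets. Blistered (*bs*), the fly serum response factor, promotes intervein fate and is kept out of the vein territories.

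The libraries held between 35466251 and 42452820 counts in the *dLsd1* mutant and between 13960866 and 45909324 in *wild-type*, where replicate 2 was the shallowest. The *dLsd1* gene itself had between 1 and 7 counts in the mutant libraries, against 676 to 2564 in the *wild-type* libraries. *Wild-type* replicate 3 stood apart from the other *wild-type* libraries, and this touched most of the genes described here. Fits with and without that library are therefore set beside each other where they differ. Nothing in the labels says whether the replicates came from separate crosses, so the p-values measure the spread between these samples, which may be partly technical. Values per library are normalized counts, that is, counts scaled by TMM factors to the mean library size.

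None of the 9 genes was differentially expressed in the *dLsd1* mutant at the thresholds used for genes, which were 0.6 for the log2 fold change in either direction and 0.1 for the p-value adjusted over all features (edgeR's quasi-likelihood test, Benjamini-Hochberg). The thresholds were passed by 6.55% of the genes tested, 4.32% upregulated and 2.23% downregulated. DESeq2's Wald test also called 0 of the 9. At an unadjusted p below 0.05, edgeR gave 1 gene of the 9, *rho*, against 18.5% of all genes tested, and DESeq2 gave 0. The median log2 fold change was 0.05 over the 9 genes and -0.02 over all genes tested, with 5 of the 9 positive. For 1 of the 9, again *rho*, the 3 mutant libraries did not overlap the 3 *wild-type* libraries, and this held for 25.1% of all genes tested.

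**Figure D1:**
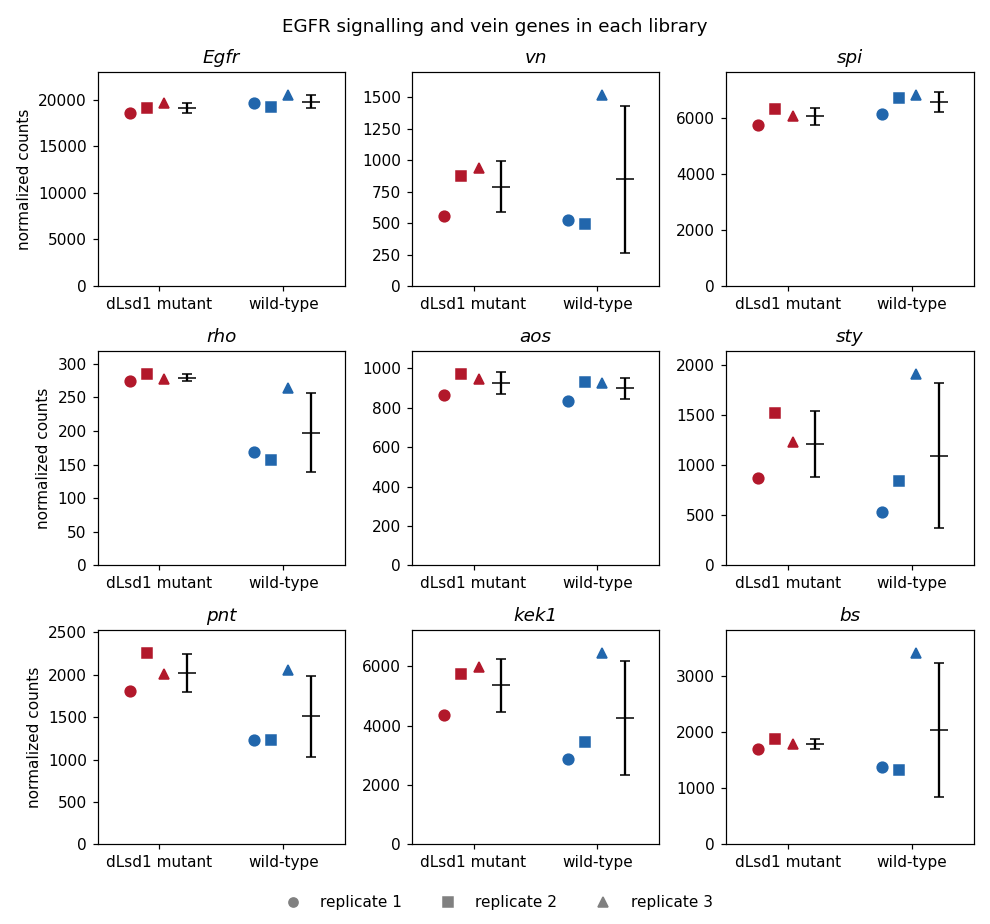
Normalized counts (y axis, linear, starting at 0) of the 9 EGFR signalling and vein genes in the 3 *dLsd1* mutant libraries (red, left) and the 3 *wild-type* libraries (blue, right), with black bars for the mean and SD of each genotype and marker shapes for the replicate number. *Egfr*, *spi* and *aos* lay close together in all 6 libraries, while *wild-type* replicate 3 (triangle) lay well above the other *wild-type* libraries for the other 6 genes.

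The receptor gene *Egfr* (FBgn0003731; 2R, 21522420 to 21559977) had 18516, 19089 and 19578 normalized counts in the mutant libraries, against 19664, 19184 and 20502 in the *wild-type* libraries. The genotypes overlapped, and no library departed by much from the rest. On the log2 scale the fold change was -0.05 ± 0.10 (SE, edgeR adjusted p = 0.806). The 95% interval of the fold, mutant over *wild-type*, ran from 0.817 to 1.14. The log2 fold change of *Egfr* was -0.03 without *wild-type* replicate 3.

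The ligand gene *spi* (FBgn0005672; 2L, 19567900 to 19577315) had 5763, 6346 and 6096 normalized counts in the mutant and 6168, 6719 and 6841 in *wild-type*. Mutant replicate 2 lay above *wild-type* replicate 1, so the genotypes overlapped. The fold was 0.923, with a 95% interval from 0.780 to 1.09 and an adjusted p of 0.585 (edgeR). The antagonist gene *aos* (FBgn0004569; 3L, 16470386 to 16483650) was as steady, with 863, 972 and 944 normalized counts in the mutant and 836, 931 and 928 in *wild-type*. Its fold was 1.03 (95% interval from 0.872 to 1.22, adjusted p = 0.841 from edgeR). Its log2 fold change of 0.05 turned to -0.015 without mutant replicate 2 and -0.0055 without *wild-type* replicate 1. The log2 fold changes without *wild-type* replicate 3 were -0.09 for *spi* and 0.07 for *aos*. *Egfr*, *spi* and *aos* thus had the narrowest intervals of the 9 genes.

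The other ligand gene, *vn* (FBgn0003984; 3L, 5813338 to 5845664), had 559, 874 and 942 normalized counts in the mutant libraries and 528, 495 and 1521 in the *wild-type* libraries. *Wild-type* replicate 3 was the highest of the 6 libraries, and the other *wild-type* libraries lay below all 3 mutant libraries. Mutant over *wild-type*, the log2 fold change was -0.11 ± 0.50 (SE, edgeR adjusted p = 0.924), and the 95% interval of the fold ran from 0.394 to 2.18. Without *wild-type* replicate 3 the value turned positive, with a log2 fold change of 0.62 ± 0.22 (SE) and an adjusted p of 0.0758, and without mutant replicate 1 it was 0.087.

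The protease gene *rho* (FBgn0004635; 3L, 1463811 to 1468944) had the fewest counts of the 9 genes and the largest fold change among them. It had 275, 285 and 278 normalized counts in the mutant, against 169, 157 and 265 in *wild-type*. The mutant libraries were close to each other and all above the *wild-type* libraries, although *wild-type* replicate 3 lay just under them. This gave a log2 fold change of 0.49 with a standard error of 0.21, and the adjusted p was 0.263 (edgeR). Without *wild-type* replicate 3 it was 0.77 with a standard error of 0.155 and an adjusted p of 0.011, past both thresholds.

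Of the genes for intracellular and membrane inhibitors, *sty* (FBgn0014388; 3L, 3401153 to 3424935) varied most. Its normalized counts were 871, 1526 and 1231 in the mutant and 531, 838 and 1912 in *wild-type*. The *wild-type* libraries spanned a wider range than the mutant libraries and enclosed them. On the log2 scale the fold change was 0.14 ± 0.50 (SE, edgeR adjusted p = 0.906). The gene *kek1* (FBgn0015399; 2L, 12817000 to 12822787) had 4349, 5743 and 5986 normalized counts in the mutant and 2883, 3448 and 6442 in *wild-type*. Again *wild-type* replicate 3 was the highest of the 6 libraries and the other *wild-type* libraries were the lowest. Its log2 fold change was 0.33 ± 0.32 (SE, edgeR adjusted p = 0.614). The value for *sty* turned negative when mutant replicate 2 (-0.095), *wild-type* replicate 1 (-0.20) or *wild-type* replicate 2 (-0.015) was left out. Without *wild-type* replicate 3 the log2 fold change was 0.85 for *sty* (adjusted p = 0.0867) and 0.76 for *kek1* (adjusted p = 0.0123), both past the thresholds.

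The transcription factor gene *pnt* (FBgn0003118; 3R, 23290231 to 23346167) had 1807, 2253 and 2011 normalized counts in the mutant and 1234, 1235 and 2054 in *wild-type*. *Wild-type* replicate 3 lay among the mutant libraries, and the other *wild-type* libraries, which were nearly equal, lay below them. Mutant over *wild-type*, the log2 fold change was 0.42 ± 0.21 (SE, edgeR adjusted p = 0.339), and without *wild-type* replicate 3 it was 0.71 ± 0.115 (SE, adjusted p = 0.00467). The intervein gene *bs* (FBgn0004101; 2R, 24342861 to 24376473) had 1694, 1874 and 1788 normalized counts in the mutant and 1382, 1321 and 3399 in *wild-type*. The mutant libraries lay close to each other, between the other *wild-type* libraries and *wild-type* replicate 3. The log2 fold change of *bs* was -0.19 ± 0.39 (SE, edgeR adjusted p = 0.818). Without *wild-type* replicate 3 it was 0.40 with a standard error of 0.094 and an adjusted p of 0.0186, past the threshold on p but not that on the fold.

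**Figure D2:**
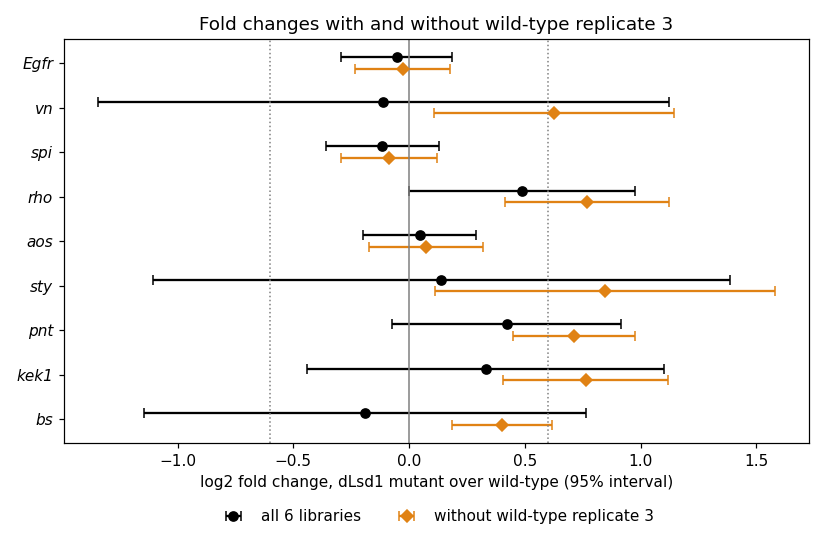
Log2 fold change of each gene, *dLsd1* mutant over *wild-type* (x axis), with its 95% interval, from the fit of all 6 libraries (black circles) and from the fit without *wild-type* replicate 3 (orange diamonds). Dotted lines mark the fold threshold of 0.6 in either direction. The values of *Egfr*, *spi* and *aos* hardly moved between the fits, while those of *vn*, *rho*, *sty*, *pnt*, *kek1* and *bs* moved to the right and their intervals became narrower.

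The genes thus fell into a steady set (*Egfr*, *spi*, *aos*) and a less steady set (*vn*, *rho*, *sty*, *pnt*, *kek1*, *bs*). Fold changes of the latter moved more without *wild-type* replicate 3 than without any other single library. *Wild-type* replicate 3 was the highest of the 3 *wild-type* libraries for 8 of the 9 genes, against 35.6% of all genes tested, the exception being *aos*. It was the highest of all 6 libraries for 6 of the 9, *Egfr*, *vn*, *spi*, *sty*, *kek1* and *bs*, against 20.1% of all genes tested. The normalized count in *wild-type* replicate 3 over the mean of *wild-type* replicates 1 and 2 was 2.97 for *vn*, 2.79 for *sty*, 2.52 for *bs*, 2.03 for *kek1*, 1.66 for *pnt* and 1.62 for *rho*. For *Egfr*, *spi* and *aos* the same ratio lay between 1.05 and 1.06. For 6 of the 9 genes all 3 mutant libraries lay above *wild-type* replicates 1 and 2, which held for 29.0% of all genes tested.

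In the fit without *wild-type* replicate 3, 5 of the 9 genes were upregulated in the mutant (*vn*, *rho*, *sty*, *pnt* and *kek1*) and 0 were downregulated, against 11.1% and 3.87% of the 10617 genes tested in that fit. The folds of these 5 genes lay between 1.54 for *vn* and 1.80 for *sty*. Leaving out replicate 3 of both genotypes, a fit chosen after seeing the data, gave 3 upregulated genes, *rho*, *pnt* and *kek1*, against 8.94% of the 10364 genes tested. In that fit *sty* had a log2 fold change of 0.84, close to the 0.85 without *wild-type* replicate 3 alone, but an adjusted p of 0.147, and *vn* had 0.48 with an adjusted p of 0.164 (edgeR). Each of the other 5 libraries, left out in turn, gave 0 of the 9. The mutant libraries also differed among themselves, and replicate 1 was the lowest of the 3 for all 9 genes, against 34.2% of all genes tested.

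The direction also differed between libraries with the same replicate number, which varied together as described in the processing summary. The mutant library was higher than the *wild-type* library of the same number in replicates 1 and 2 and lower in replicate 3 for 5 of the 9 genes, *vn*, *sty*, *pnt*, *kek1* and *bs*. This is not separate from the departure of *wild-type* replicate 3. For these 5 genes that library was 1.66 to 2.97 times the mean of the other *wild-type* libraries. For *vn* the log2 ratios were 0.08, 0.82 and -0.69, and for *sty* they were 0.71, 0.86 and -0.64. For *rho* all 3 were positive, with log2 ratios of 0.70, 0.85 and 0.07, and so they were for *aos*, at 0.05, 0.06 and 0.03. *Egfr* and *spi* were lower in the mutant in all 3 replicates, but by no more than 0.17 on the log2 scale. The shares of all genes with these directions were not calculated.

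The departure of *wild-type* replicate 3 went with the length of genes across the transcriptome. Among 7360 genes with a mean of at least 100 normalized counts, the ratio of *wild-type* replicate 3 to the mean of the other *wild-type* libraries was above 1.5 for 14.0%. This share was 2.30% for genes with under 2 kb of merged exons, 9.64% from 2 to 4 kb, 31.8% from 4 to 6 kb and 59.9% over 6 kb. The merged exon lengths of *bs*, *vn*, *sty*, *kek1* and *pnt* lay between 4.79 and 6.12 kb, those of *spi*, *aos* and *rho* between 1.82 and 3.00 kb. *Egfr*, at 6.95 kb, was the longest of the 9 and yet had a ratio of 1.06, while *rho* had 1.62 with 3.00 kb of exons. The part of gene length in the values of *wild-type* replicate 3 was not tested.

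**Figure D3:**
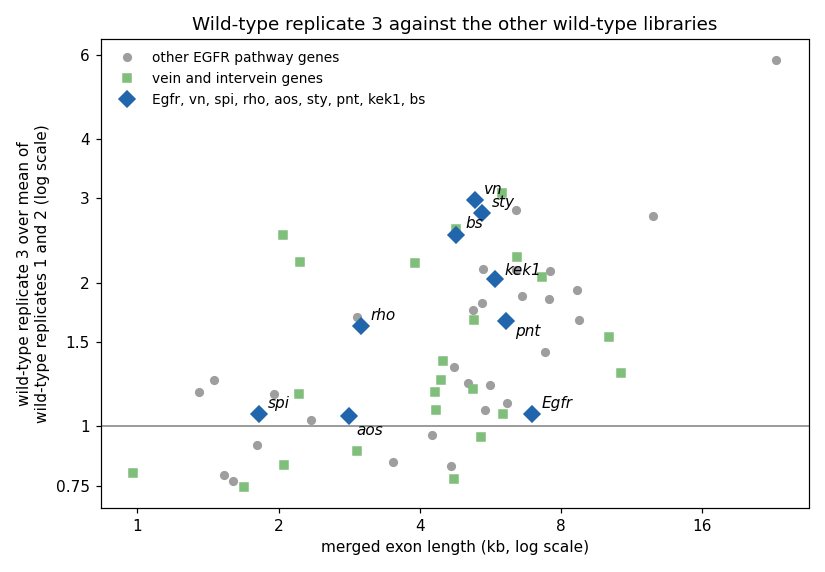
Ratio of *wild-type* replicate 3 to the mean of *wild-type* replicates 1 and 2 (y axis, log scale) against merged exon length in kb (x axis, log scale) for the 9 EGFR signalling and vein genes (blue diamonds, named), other EGFR pathway genes (grey circles) and vein and intervein genes (green squares) with a mean of at least 100 normalized counts. *vn* and *sty* reached ratios of 2.97 and 2.79, while *Egfr* stayed at 1.06 despite its 6.95 kb.

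Markers of disc regions and of other cells also had other levels in that library. The summed normalized counts of 3 hinge markers (*zfh2*, *tsh*, *hth*) lay between 18330 and 23950 in the mutant libraries, and were 39730 in *wild-type* replicate 3 against 14270 and 15510 in *wild-type* replicates 1 and 2. The ratio of *wild-type* replicate 3 to the mean of the other *wild-type* libraries was 4.54 for *zfh2*, 4.83 for *hth* and 1.42 for *tsh*. Their merged exons spanned 12424, 11839 and 4732 bp. As given above, 59.9% of genes over 6 kb had a ratio above 1.5. The 5 pouch markers (*vg*, *nub*, *rn*, *Dll*, *ap*) summed to between 34810 and 37320 in the mutant and to 44630 in *wild-type* replicate 3, against 26870 and 27110 in the other *wild-type* libraries. The 5 notum markers (*pnr*, *eyg*, *tup*, *ush*, *mirr*) summed to between 12110 and 12920 in the mutant and between 9103 and 13450 in *wild-type*. Of these region markers 0 of 3, 0 of 5 and 0 of 5 passed the thresholds with edgeR, and only the notum gene *ush* had an unadjusted p below 0.05. In the fit without *wild-type* replicate 3, however, 2 of the 5 pouch and 1 of the 5 notum markers were upregulated, against 11.1% of all genes. They were *rn* (log2 fold change 0.89, adjusted p = 0.00113), *ap* (0.70, adjusted p = 0.0078) and *ush* (0.71, adjusted p = 0.00178). The same fit called 5 of the 9 EGFR signalling and vein genes. The same 3 markers were upregulated without replicate 3 of both genotypes, against 8.94% of all genes. Of the fat body markers, 4 were low in *wild-type* replicate 3, at 0.067 to 0.107 times the mean of the other *wild-type* libraries, while *Lsp1alpha* was 2.32 times as high. The 5 genes (*Lsp1alpha*, *Lsp1beta*, *Lsp2*, *Fbp1*, *Fbp2*) summed to 3367 to 16750 in the mutant and to 1990 in *wild-type* replicate 3, against 18300 and 28270 in the other *wild-type* libraries. *Lsp1alpha* was upregulated (log2 fold change 2.17, edgeR adjusted p = 0.0535), while *Lsp2*, *Fbp1* and *Fbp2* had values from -0.66 to -1.52 that did not pass. The call of *Lsp1alpha* was lost when mutant replicate 1 or 2 or *wild-type* replicate 1 or 2 was left out. The part of these differences in the values of *vn*, *sty* and the other genes was not tested.

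Cells other than the disc epithelium also use some of these genes, and *sty* and *pnt* are known from the trachea. The 4 tracheal markers counted (*trh*, *Gasp*, *serp*, *verm*) summed to between 26650 and 30890 in the mutant and between 31150 and 33680 in *wild-type*, and 0 of the 4 passed the thresholds (2 at an unadjusted p below 0.05 by edgeR), although 1 was downregulated when mutant replicate 1 or *wild-type* replicate 2 was left out. Their directions differed, with 2 positive and 2 negative log2 fold changes, from -0.59 to 0.42. Between same-numbered libraries *Gasp* was higher in the mutant in all 3 pairs, and *serp* and *verm* were lower in all 3. The 6 myoblast markers (*twi*, *zfh1*, *Him*, *htl*, *stumps*, *Mef2*) summed to 7959 to 8438 in the mutant and 6280 to 9081 in *wild-type*, with 0 past the thresholds and 0 at an unadjusted p below 0.05 by edgeR. Of the 6, 2 were upregulated without *wild-type* replicate 3, *zfh1* (log2 fold change 0.92, adjusted p = 0.00506) and *Mef2* (0.81, adjusted p = 0.00166), and both were also upregulated without replicate 3 of both genotypes. The shares of all genes upregulated in these fits were 11.1% and 8.94%. The 5 haemocyte markers (*Hml*, *NimC1*, *Pxn*, *srp*, *eater*) summed to 729 to 1175 in the mutant and 689 to 823 in *wild-type*, with *NimC1* downregulated (log2 fold change -1.88, edgeR adjusted p = 0.0511), a call lost when 1 of the 3 mutant libraries or *wild-type* replicate 1 was left out. The other 4 had positive log2 fold changes, and 1 of the 5 was upregulated with DESeq2 or without *wild-type* replicate 2. *eater* was upregulated without *wild-type* replicate 3 (log2 fold change 0.85, edgeR adjusted p = 0.0853). The 5 muscle markers (*Mhc*, *Act57B*, *Mlc1*, *Mlc2*, *up*) summed to 1821 to 3538 in the mutant and 1477 to 1942 in *wild-type*, with *Mlc2* upregulated (log2 fold change 0.63, edgeR adjusted p = 0.0941). The number of muscle markers upregulated depended on the fit. It was 3 of the 5 under the replicate block (*Mhc*, *Mlc1*, *Mlc2*), against 4.62% of all genes, and 2 with DESeq2. It was 4 without replicate 3 of both genotypes, against 8.94%, and 1 (*Mlc1*) without *wild-type* replicate 3, against 11.1%. It was 0 with upper-quartile factors, with edgeR's own count filter, or when mutant replicate 1 or 2 or *wild-type* replicate 1 was left out. The block also called *Pxn* and *Lsp1beta* up and *Fbp2* down. The 5 neuronal and glial markers (*elav*, *nSyb*, *Syt1*, *repo*, *moody*) summed to 734 to 836 in the mutant and to 1222 in *wild-type* replicate 3, against 504 and 451 in *wild-type* replicates 1 and 2. The higher sum came from *elav*, at 4.23 times the mean of the other *wild-type* libraries. The same ratio was 0.998 for *nSyb*, 1.03 for *repo*, 1.19 for *moody* and 0.789 for *Syt1*. None of the 5 passed with all libraries (0 at an unadjusted p below 0.05 by edgeR), and *elav* was upregulated without *wild-type* replicate 3 (log2 fold change 1.02, adjusted p = 0.0219). The part of these cell types in the values of the 9 genes was not tested.

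Other genes of the pathway were counted from a list of 39 symbols, of which 37 were matched and 34 tested. At the thresholds 0 of the 34 were differentially expressed with either edgeR or DESeq2, against 6.55% of all genes tested by edgeR. At an unadjusted p below 0.05, edgeR gave 1 of the 34, *Dsor1*, against 18.5% of all genes tested. The median log2 fold change was 0.10, with 23 of 34 positive. Among the genes for ligands and their processing, *Krn*, *grk* and *S* (Star) had log2 fold changes of 0.07, -0.16 and 0.23. Without *wild-type* replicate 3 these were 0.16, -0.05 and 0.56. *S* then passed the threshold on p (edgeR adjusted p = 0.00884) but not that on the fold. With all 6 libraries, the largest values of that group were 0.38 for *rho-5* and 0.32 for *ru*, a protease gene related to *rho*, both on fewer than 100 counts per library.

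Among the genes that carry the signal from the receptor, *Dsor1*, which encodes the MAP kinase kinase, had 2232, 2368 and 2010 normalized counts in the mutant, all below the 2937, 2956 and 2699 in *wild-type*. Its log2 fold change was -0.38 with a standard error of 0.11 and an adjusted p of 0.101 (edgeR), short of both thresholds. It was -0.42 without *wild-type* replicate 3 (adjusted p = 0.018), still short of the fold threshold. *Ras85D*, *Raf* and *rl*, which encode Ras, Raf and the MAP kinase, had log2 fold changes of 0.09, -0.001 and -0.01. Without *wild-type* replicate 3 these were 0.17, -0.02 and 0.44 (edgeR adjusted p = 0.227 for *rl*). For *spen*, which encodes a nuclear RNA-binding protein, the counts were 2385, 2871 and 4753 in the mutant and 1495, 2930 and 12922 in *wild-type*, so *wild-type* replicate 3 was far above the rest. The fitted log2 fold change of *spen* was -0.80 ± 0.82 (SE, edgeR adjusted p = 0.643), and without *wild-type* replicate 3 it was 0.61 (adjusted p = 0.366).

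Of the nuclear effectors and negative regulators, *cic* encodes the repressor Capicua, and EGFR signalling relieves its repression of target genes. *cic* had 11557, 13794 and 13235 normalized counts in the mutant and 4539, 5143 and 13358 in *wild-type*. *Wild-type* replicate 3 was level with the mutant libraries and the other *wild-type* libraries were far below. The log2 fold change of *cic* was 0.74 ± 0.44 (SE, edgeR adjusted p = 0.42), and without *wild-type* replicate 3 it was 1.41 ± 0.115 (SE, adjusted p = 0.000178). *kek2*, a relative of *kek1*, had 35.6, 46.8 and 44.8 normalized counts in the mutant and 34.3, 2.58 and 36.7 in *wild-type*, where the low value stood for a single count in the shallowest library. Its log2 fold change was 0.67 ± 0.59 (SE, edgeR adjusted p = 0.574). Without *wild-type* replicate 3, 6 of the 34 genes were upregulated and 0 downregulated, against 11.1% and 3.87% of all genes in that fit. They were *drk*, an adaptor gene, *aop*, which encodes the repressor Yan, *cic*, *tay*, *kek5*, a relative of *kek1*, and *ed*, which encodes the adhesion protein Echinoid, an antagonist of the receptor. Of these genes, 5 (all but *drk*) were also upregulated without replicate 3 of both genotypes, against 8.94% of all genes. They were picked after their values were seen.

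A second list held 25 genes of vein formation, crossveins and intervein adhesion, of which 23 were matched and tested. None of the 23 was differentially expressed with edgeR or DESeq2, against 6.55% of all genes tested by edgeR. Of the 23, 3 had an unadjusted p below 0.05 by edgeR, *ara*, *cv-d* and *if*, against 18.5% of all genes tested. The median log2 fold change was 0.01, with 12 of 23 positive. *ara*, an Iroquois gene needed for the prepattern of veins and notum, had 5066, 5001 and 4473 normalized counts in the mutant, all below the 6230, 6794 and 5786 in *wild-type*. Its log2 fold change was -0.37 ± 0.11 (SE, edgeR adjusted p = 0.121), and that of its neighbour *caup* was -0.13. Without *wild-type* replicate 3 the value of *ara* was -0.43 (edgeR adjusted p = 0.0157), short of the fold threshold. The crossvein gene *cv-d* had a log2 fold change of 0.45 ± 0.18 (SE, edgeR adjusted p = 0.223).

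None of the 3 integrin genes passed the thresholds. *if*, which encodes an alpha subunit, had 4081, 3808 and 4064 normalized counts in the mutant and 4874, 4903 and 5206 in *wild-type*, with no overlap and a log2 fold change of -0.33 ± 0.10 (SE, edgeR adjusted p = 0.121). *mys*, which encodes the beta subunit, had a log2 fold change of 0.33 ± 0.15 (SE, edgeR adjusted p = 0.285), and *mew*, which encodes another alpha subunit, had 0.06 ± 0.12 (SE, edgeR adjusted p = 0.813). Without *wild-type* replicate 3 the values by edgeR were -0.30 for *if* (adjusted p = 0.0333), 0.50 for *mys* (0.00964) and 0.15 for *mew* (0.25). All were short of the fold threshold. The vein transcription factor genes *kni* and *knrl* had log2 fold changes of -0.04 and 0.01, and *net*, whose product represses *rho* in intervein cells, had 0.15. In the fit without *wild-type* replicate 3 these were 0.04, 0.52 and 0.63. *knrl* then passed the threshold on p (edgeR adjusted p = 0.063) but not that on the fold. Without *wild-type* replicate 3, 4 of the 23 genes were upregulated (*ab*, a gene of the fifth vein, *net*, *emc* and *H*, which encodes the Notch antagonist Hairless) and 0 downregulated, against 11.1% and 3.87% of all genes in that fit. Without replicate 3 of both genotypes *ab*, *emc* and *H* were upregulated, 3 of the 23, against 8.94% of all genes.

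Levels were compared between the 9 genes as CPM (library-scaled counts) per kb of merged exon. In the mutant libraries the order was *spi* (92.6 ± 4.5, SD, n = 3), *Egfr* (76.1 ± 2.1), *kek1* (25.7 ± 4.2), *bs* (10.3 ± 0.52), *pnt* (9.17 ± 1.0), *aos* (9.11 ± 0.55), *sty* (6.17 ± 1.7), *vn* (4.19 ± 1.1) and *rho* (2.58 ± 0.047). Neighbours overlapped for *bs* and *pnt*, *pnt* and *aos*, and *sty* and *vn*. In the *wild-type* libraries *spi* (100.4 ± 5.5) and *Egfr* (79.0 ± 2.7) again led, *rho* (1.82 ± 0.54) was again the lowest, and *aos* (8.83 ± 0.53) ranked before *pnt* (6.83 ± 2.1). In *wild-type* the neighbours that did not overlap were *spi* and *Egfr*, *Egfr* and *kek1*, and *vn* and *rho*. By the ratio of means, the receptor transcript was thus 29.5 times as abundant per kb as that of *rho* in the mutant and 43.4 times in *wild-type*. The *wild-type* ratio depended on replicate 3, as the level of *rho* was 1.563, 1.455 and 2.446 in *wild-type* replicates 1, 2 and 3.

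**Figure D4:**
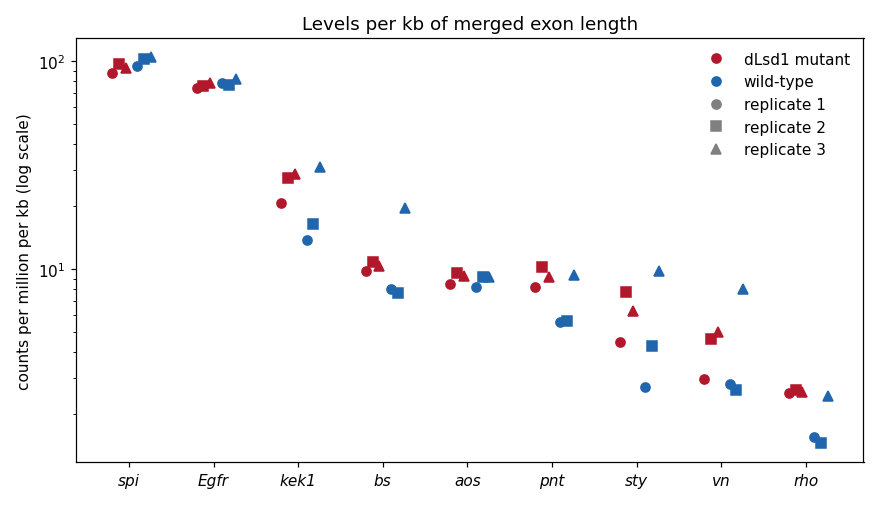
Levels of the 9 genes as CPM (library-scaled counts) per kb of merged exon (y axis, log scale), in the order of their *wild-type* means, with *dLsd1* mutant libraries in red on the left and *wild-type* libraries in blue on the right of each gene and marker shapes for the replicate number. *spi* and *Egfr* stood above the other genes in every library and *rho* was the lowest in every library.

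The genes whose pattern over the 6 libraries was nearest to that of *Egfr*, by the root mean square difference of log2 normalized counts centred on their *wild-type* mean, were *CG31301* (0.0234), *tra2* (0.0243) and *CG1910* (0.0259), out of 7477 genes with a mean of at least 100 normalized counts. Their log2 fold changes lay between -0.05 and -0.04, next to the -0.05 of *Egfr*, a closeness that follows from how they were picked.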

How the data were processed

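The authors trimmed paired-end reads with Trimmomatic 0.36, aligned them to dm6 with STAR 2.5.2a and removed duplicates with Picard, and deposited whole-number counts per gene and TE family, without normalization, in a TEToolkit-format table per library. The annotation, strand and multi-mapping settings, and whether the deposited tables were counted after that removal, are not given in the sources used here. Identifiers were matched to the BDGP6 annotation, release 115 (17249 of 17471 genes), whose coordinates are used. No exon base of the 9 genes overlaps another annotated gene. *cnk*, *cv-c*, *btl* and *Dl* were not matched and are not analysed here. The symbol *Gap1*, a synonym of *RasGAP1*, was not matched either, but the gene was tested as *RasGAP1*. No sequences were used.

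Features with at least 10 counts over the 6 libraries (10841 genes, 150 TE families) entered an edgeR 4.0.16 quasi-likelihood fit with TMM factors in R 4.3.3, tested on simulated data. Standard errors are the log2 fold change over the root of F, and 95% intervals use the t distribution. Alternatives were DESeq2 1.42.0, upper-quartile factors, genes only, other filters and thresholds, a block for the replicate number, and the omission of each library. Omitting replicate 3 of both genotypes, and the ratios by exon length, were chosen after seeing the data.

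The labels do not say what a replicate number marks. Deviations from the genotype mean correlated at 0.363, 0.168 and 0.413 between same-numbered libraries, so the numbers were taken as pairs, although *wild-type* replicate 2 correlated more with mutant replicate 1 (0.304).

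The genes and lists were chosen with earlier results of these data known. Besides the 9 genes, the text names listed genes past the thresholds, the 2 with the largest fold change in each pathway or vein list among the rest with at least 30 counts on average in the higher genotype, and the 3 genes most like *Egfr*. Others were picked after their values were seen.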

Additional observations from a re-analysis of the deposited data

How the results depend on the processing

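With all 6 libraries kept, 0 of the 9 genes passed the thresholds under DESeq2, other scaling factors, other filters, other thresholds or a block. With the replicate number as a block, *vn* had a log2 fold change of 0.046 (adjusted p = 0.932 from edgeR), and the block changed no call of the 9 genes or of the listed pathway and vein genes, only of marker genes. When each library was left out, between 0 and 5 of the 9 genes, 0 and 6 of the pathway list, 0 and 4 of the vein list and 373 and 1588 of all genes passed, against 710 of all genes with every library. The highest counts came without *wild-type* replicate 3, the lowest for all genes without mutant replicate 2. The log2 fold change then ranged from -0.37 to 0.62 for *vn*, 0.36 to 0.77 for *rho*, -0.015 to 0.094 for *aos*, -0.20 to 0.85 for *sty*, 0.29 to 0.71 for *pnt*, 0.11 to 0.76 for *kek1* and -0.42 to 0.40 for *bs*, and stayed negative for *Egfr* (-0.08 to -0.03) and *spi* (-0.17 to -0.08). Without replicate 3 of both genotypes, 3 of the 9 genes, 5 of the pathway list, 3 of the vein list and 1266 of all genes passed, and the log2 fold change was 0.48 for *vn*, 0.77 for *rho*, 0.72 for *pnt*, 0.68 for *kek1*, 0.40 for *bs* and 0.84 for *sty*, whose adjusted p was 0.147 (edgeR). The cause was not tested. With all libraries, the 95% interval of the fold ran from 0.394 to 2.18 for *vn* and from 0.465 to 2.61 for *sty*. Folds within these ranges were compatible with the data, and the smallest detectable fold was not calculated. The standard errors of the log2 fold changes were 0.497 and 0.502, against 0.221 and 0.299 without *wild-type* replicate 3.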
